A study of Mus musculus with 9 samples.

Results

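The genes of the cytosolic ribosomal proteins were examined in heart RNA. They were chosen by symbol alone: Rpl or Rps followed by a digit, Rplp0 to Rplp2, and Rpsa, leaving out the S6 kinases and pseudogenes marked as such. This gave 84 of the 13890 genes listed, and all 84 passed the filter on low counts. By what their products are, 42 encode proteins of the large subunit, 31 proteins of the small subunit and 3 the acidic stalk. Another 6 are paralogues or copies of a subunit gene (Rpl3l, Rpl22l1, Rpl36al, Rps27l, Rps4l and Rpl37rt). The remaining 2 carry a matching symbol but do not encode a subunit: Rpl7l1, a nucleolar relative of Rpl7 that takes part in ribosome assembly, and Rps19bp1, which binds the protein of Rps19. The label therefore holds for 76 subunit genes, and the other members are described separately. Rpl26, Rpl10l and Rpl39l were not analysed here.

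The ribosome is built from a small subunit, which reads the mRNA, and a large subunit, which joins the amino acids, each made of ribosomal RNA and a set of proteins. Ribosomal protein mRNAs are abundant, mostly short, and in mammals many begin with a C followed by a run of pyrimidines, the 5′ terminal oligopyrimidine or TOP tract. Through this tract the kinase complex mTORC1 and the RNA-binding protein Larp1 control how much of each message is translated, and they also affect its stability. In the heart, ribosome number is known as one of the limits on growth, and Rpl3l is a form of Rpl3 restricted to heart and skeletal muscle.

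RNA was measured in 9 hearts of male mice of the NSG strain, which lacks mature lymphocytes and accepts human cells. All mice were 8 weeks old at surgery and were killed about 3 weeks later. The S hearts (sham, animals 2, 3 and 5) came from mice given saline into the spleen, the T hearts (animals 11, 12 and 15) from mice labelled as given HCT116 cells, a single human colorectal cancer line that spreads from the spleen to the liver, and the A + T hearts (animals 20, 21 and 22) from hosts that also received weekly ACVR2B/Fc, a soluble receptor that binds activins, myostatin and related ligands. Across the genes that the study lists, the libraries labelled T had the fold changes listed for ACVR2B vs. sham and not those listed for HCT vs. sham, so T is used here as the name of these libraries only, and no direction for T is ascribed to a tumour.

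The counts on genes summed to between 12392222 and 19732471 per library. Values below are CPM, counts scaled to a common library size, here after TMM so that most genes balance between libraries, with mean ± SD of 3 animals. A gene was said to have risen or fallen where edgeR's quasi-likelihood test gave P under 0.05 once adjusted by the Benjamini-Hochberg method over the 13364 genes tested. For 1 gene on its own, the smallest two-sided P-value that exact permutation allows with 3 animals against 3 is 0.1. The cardiomyocyte genes listed as markers, such as Myh6 and Tnnt2, summed to between 55000 and 81200 CPM in every heart, which is what heart muscle contains. In bulk tissue, fewer cells of a type and less RNA per cell cannot be told apart.

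The 5′ ends of a few of these genes are shown because the TOP tract is the feature that members of the group are best known to share. RefSeq gave a promoter on GRCm38.p6 for 63 of the 84 genes. Each line holds 15 bases before and 15 bases from the annotated start on the coding strand. Capitals mark a C followed by at least 4 further C or T within 3 bases of that start.
Rps6 (chr4:86857353-86857382, minus strand): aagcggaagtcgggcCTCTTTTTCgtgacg
Rpl28 (chr7:4792950-4792979, plus strand): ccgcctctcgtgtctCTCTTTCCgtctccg
Rplp2 (chr7:141447636-141447665, plus strand): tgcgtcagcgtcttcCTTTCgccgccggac
Rpl22l1 (chr3:28805493-28805522, plus strand): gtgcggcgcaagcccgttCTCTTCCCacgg
Rps28 (chr17:33824548-33824577, minus strand): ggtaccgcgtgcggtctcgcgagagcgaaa
Rpl39 (chrX:37085208-37085237, minus strand): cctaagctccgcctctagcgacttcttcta
Rpl3l (chr17:24727811-24727840, plus strand): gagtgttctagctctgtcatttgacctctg
In Rps6, Rpl28 and Rplp2 the capitals begin at the annotated start, because a run from that base was looked for first. In all 3 a C or T also lay directly before it, so a run of this kind could be counted from further upstream. In Rplp2 such a run opened 4 bases before the start. In Rpl22l1 the tract opened 3 bases after the start. In the last 3 genes no such run opened within 3 bases of the start given here, which is 1 of the 2 starts listed for Rpl3l. In Rpl39 a run of this kind opened 4 bases before the start, just outside that window.

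A C at the annotated start followed by at least 4 further C or T was counted whatever bases lay before it. It was found in 13 of the 63 ribosomal protein genes (20.6%), in 311 of 10143 tested genes with a promoter (3.07%) and in 0 of 68 mitochondrial ribosomal protein genes. Within 3 bases of the start the counts were 25 of 63 (39.7%) against 1549 of 10143 (15.3%). The letters CCGGAAG, bound by factors of the ETS family, were present on either strand in the 300-base window of 24 of the 63 genes (38.1%), against 19.0% of all genes tested and 36.8% of mitochondrial ribosomal protein genes. CACGTG, the E-box bound by Myc, was in 9.52% of members and 11.6% of genes tested. For YY1 the result depended on the form searched. An 11-base form, which extends AAGATGG by 4 bases, was searched first and was in 0 of the 63 members and in 1.75% of genes tested. The 7-base core AAGATGG was searched only after that count was seen, and it was in 10 of the 63 (15.9%), in 8.2% of genes tested and in 19.1% of mitochondrial ribosomal protein genes. In all 4 motifs were searched on both strands and the tract in 2 windows on the coding strand, and none of these shares was tested. The absence of a run of letters says only that they are not in this window, and annotated starts can lie several bases from the start used.

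Together the 84 genes took a small share of the RNA, with the lowest mean share in S. It was 0.994%, 1.20% and 1.09% of the counts in S, 1.36%, 1.34% and 1.28% in T, and 1.39%, 1.16% and 1.75% in A + T. Summed over the 84 genes, the S hearts held 10851, 11234 and 10311 CPM, the T hearts 13349, 12392 and 14892 CPM, and the A + T hearts 13033, 12315 and 17603 CPM. Every T heart and every A + T heart lay above every S heart, while T and A + T overlapped. Animal 22 of A + T had the highest CPM of the 9 hearts for 79 of the 84 genes, and animal 5 of S the lowest for 57. The lowest of the 9 hearts was an S heart for 77 genes.

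**Figure D1:**
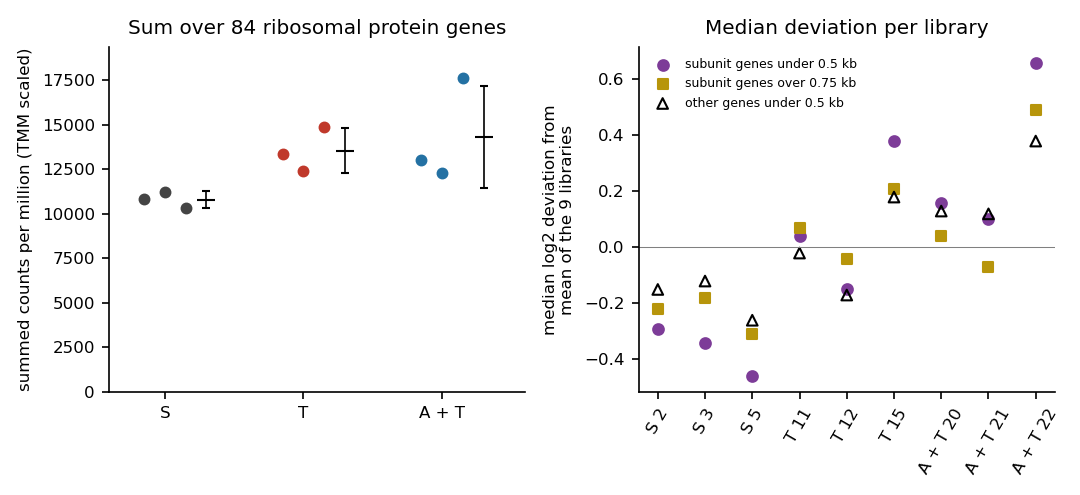
Left, summed CPM of the 84 ribosomal protein genes in each heart (points) with the mean and SD of 3 animals per group (bar), from 10311 to 11234 in S and from 12315 to 17603 in the other groups. Right, for each heart, the median log2 deviation from the mean of the 9 hearts for subunit genes shorter than 0.5 kb, for those longer than 0.75 kb and for the other genes shorter than 0.5 kb: all 3 medians were below 0 in S hearts and highest in animal 22.

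Animal 22 also stood apart in genes of other tissues. The 3 of 6 airway and lung markers in the table summed to 1430 CPM there, to 109 CPM in animal 12 of T and to at most 2.28 CPM in the other hearts. The 3 of 4 neutrophil markers in the table summed to 214 CPM in animal 22 and to between 3.76 and 26.3 CPM elsewhere, and its sum of 8 cardiomyocyte markers, 55000 CPM, was the lowest of the 9. Of the lymphocyte markers, 0 of 4 were in the table. The part of these differences in the ribosomal protein values was not tested, and values without animal 22 are given where they change a count.

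The first comparison asked how the ribosomal protein genes of the hearts labelled T stood to sham. As a group they lay higher in T, and few of them passed the test singly. The median log2 fold change was 0.34 (1.27-fold), against −0.00 over all genes tested, and 79 of 84 genes (94%) lay above 0, against 49.6% of all genes. In 66 genes every T heart was above every S heart, where 21.1% of all genes did so, and in 1 gene every T heart was below, where 21.5% did so. After adjustment 7 genes rose (8.33%, against 10.3% of all genes) and 1 fell (1.19%, against 11%). At an unadjusted P-value under 0.05 the counts were 48 and 1, against 17.3% and 18.1% of all genes, and with at least a 1.5-fold change as well they were 4 and 0, against 5.2% and 9.01%. Those 4 were Rps28, Rps29, Rpl22l1 and Rpl29. The share that rose was thus near the background, while the share higher at the unadjusted threshold alone was above it. The shares that were lower lay below the background under each rule.

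The large and small subunits had close medians in T vs. S, and a difference between them was not tested. Of the 42 large-subunit genes 4 rose, with a median of 0.36, and of the 31 small-subunit genes 2 rose, with a median of 0.35. Rps28, a small protein near the mRNA exit of the small subunit, had 25.9, 27.8 and 26.2 CPM in S and 43.9, 32.3 and 79.2 CPM in T. The T hearts were all above the S hearts, with animal 15 far above the other T hearts. Its log2 fold change was 0.95 with a standard error of 0.27 (edgeR quasi-likelihood test, adjusted P = 0.0294), and without animal 15 it was 0.53 (adjusted P = 0.0488).

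Rps9, which lies at the entry of the mRNA channel, had 284, 280 and 275 CPM in S and 380, 360 and 415 CPM in T. The groups were well apart, and Rps9 rose by 0.46 with a standard error of 0.13 (edgeR, adjusted P = 0.0275). Among the large-subunit proteins, Rpl23 had 176, 192 and 167 CPM in S against 240, 222 and 296 CPM in T. Rpl28 had 146, 151 and 146 CPM against 205, 173 and 246 CPM. In both, animal 12 was the lowest of T and still above every S heart. The log2 fold changes were 0.50 (standard error 0.14, adjusted P = 0.0279) for Rpl23 and 0.49 (standard error 0.13, adjusted P = 0.0255) for Rpl28. Rpl21 rose by 0.53 (adjusted P = 0.0361) and Rpl10a, part of the L1 stalk where the spent tRNA leaves, by 0.49 (adjusted P = 0.0407).

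Rplp0 anchors the acidic stalk to which the elongation factors bind. It had 419, 469 and 437 CPM in S and 563, 541 and 559 CPM in T, and the T hearts were close together and above all S hearts. It rose by 0.33 with a standard error of 0.09 (edgeR, adjusted P = 0.0323). The other stalk genes, Rplp1 and Rplp2, had 0.47 and 0.39 and did not pass (adjusted P = 0.0688 and 0.0829). Rpl5 and Rpl11, which with 5S RNA form the particle that binds Mdm2 when ribosome assembly is disturbed, had 0.42 and 0.40 (adjusted P = 0.0843 and 0.116). Rps6, the substrate of the S6 kinases, had 0.33 (adjusted P = 0.0894), and Rpsa, the laminin-receptor homologue of the small subunit, had 0.35 (adjusted P = 0.0667).

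The gene that fell was a member that encodes no subunit. Rpl7l1 had 36.5, 37.2 and 34.8 CPM in S and 28.1, 26.6 and 31.8 CPM in T, with every T heart below every S heart. Its log2 fold change was −0.33 with a standard error of 0.10 (edgeR, adjusted P = 0.033). In A + T it had 27.9, 28.9 and 33.3 CPM, also below every S heart, with a log2 fold change from S of −0.27 that did not pass (adjusted P = 0.107). Rps19bp1 had 6.13 ± 0.371 CPM in S and 5.33 ± 0.752 in T, a log2 fold change of −0.21 that did not pass (adjusted P = 0.373). Rpl34 was the only subunit gene with a negative value, −0.55 (adjusted P = 0.296), and rested on 8 to 17 counts per library.

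**Figure D2:**
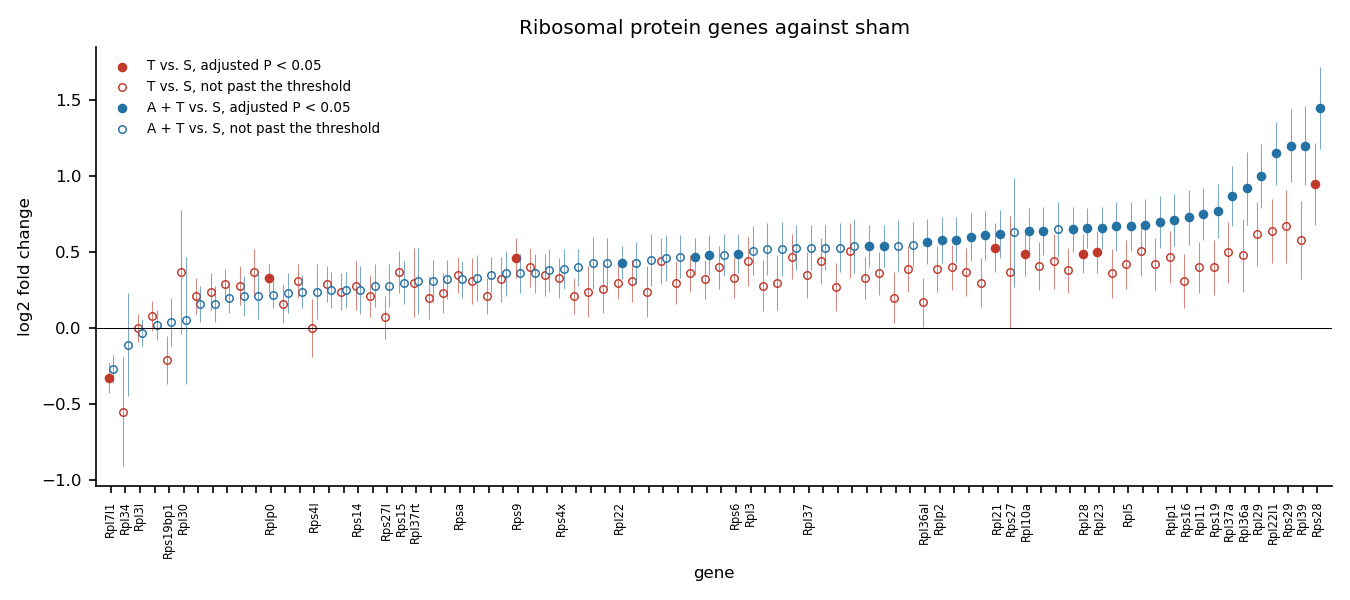
Log2 fold change with its standard error of each of the 84 genes for T (red) and A + T (blue) against S, ordered by the latter and labelled for the genes described singly, with filled points at an adjusted P-value under 0.05. Most points lie above 0 in both, 7 rose and Rpl7l1 fell in T vs. S, and 32 rose in A + T vs. S, with Rps28 at the right end of both.

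The calls in T vs. S depended on which libraries entered. Without any 1 of the 3 S animals 0 genes passed, where 6.65% to 6.83% of all genes rose and 6.61% to 7.37% fell. Without animal 11 of T 2 genes rose, where 6.52% of all genes rose and 6.68% fell. Without animal 15 of T 1 gene rose and 1 fell, where 8.79% and 8.7% of all genes did so. Without animal 22 of A + T, which enters this comparison only through the shared estimate of the spread, 59 genes rose and 1 fell, where 14.4% and 13.9% of all genes did so. With all 9 libraries, DESeq2 called 31 higher and 1 lower, where it called 11.1% and 11% of all genes.

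The second comparison asked how A + T stood to the libraries labelled T. No ribosomal protein gene passed the adjustment with edgeR, where 3.09% of all genes rose and 2.79% fell. DESeq2 and limma-voom also called 0, and at an unadjusted P-value under 0.05 there were 5 higher genes and 0 lower (5.95% and 0%, against 11.8% and 10.6% of all genes). With at least a 1.5-fold change as well, Rpl39 alone was higher and 0 were lower, against 6.5% and 1.61% of all genes. The median log2 fold change was 0.16, with 68 of 84 genes above 0, against 51.7% of all genes. Only Rpl36al and Rps4l had every A + T heart above every T heart, where 12.3% of all genes did so. T enters both this comparison and T vs. S, so the 2 sets of values are not independent.

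The 5 genes with the lowest P-values were Rpl39 (0.62), Rps29 (0.53), Rpl22l1 (0.50), Rps16 (0.42) and Rpl36al (0.41), with adjusted P-values between 0.156 and 0.216. In Rpl39, a short protein lining the exit tunnel, the T hearts had 21.4, 23.4 and 44.3 CPM and the A + T hearts 39.8, 37.2 and 58.4 CPM. Animal 15 of T alone lay inside the range of A + T. Without that animal Rpl39 rose by 1.01 (adjusted P = 0.0217), Rps28 by 0.93 (adjusted P = 0.021), Rps29 by 0.89 (adjusted P = 0.0239) and Rpl22l1 by 0.77 (adjusted P = 0.0377, edgeR). Without animal 22 of A + T the median over the 84 genes was −0.02, and 0 genes rose and 1 fell (3.83% and 3.7% of all genes). With animal 15 of T left out as well, the median was 0.08, with 53 of 84 genes above 0, 8 that rose and 1 that fell (4.42% and 4.21% of all genes). The sign of the median thus changed with which of these animals entered.

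The third comparison set A + T against sham. Here 32 of the 84 genes rose (38.1%, against 4.67% of all genes) and 0 fell (3.64% of all genes), and 24 were higher at an unadjusted P-value under 0.05 with at least a 1.5-fold change (28.6%, against 5.82%), with 0 lower (3.09% of all genes). At the unadjusted threshold alone 60 were higher and 1 lower, against 13.6% and 12.5%. In 62 genes every A + T heart was above every S heart, where 16% of all genes did so. The median log2 fold change was 0.48 (1.4-fold), against 0.00 over all genes, and 81 genes lay above 0, against 50.5%. By role, 15 of 42 large-subunit genes, 13 of 31 small-subunit genes, 2 of 3 stalk genes and 2 of 6 paralogues rose. The same S hearts enter this comparison and T vs. S, and the same A + T hearts enter it and A + T vs. T. Its values are therefore not independent of those of either.

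Of the small-subunit genes Rps28 changed most. It had 69.9, 62.0 and 85.8 CPM in A + T, and even the lowest of these lay far above every S value. Its log2 fold change from S was 1.45 or 2.72-fold, with a standard error of 0.27 (edgeR, adjusted P = 0.0118). Rps29, a zinc-binding protein that contacts the head of the small subunit, had 76.5, 80.7 and 68.6 CPM in S and 157, 152 and 209 CPM in A + T. Its A + T hearts were also well above all S hearts, and it rose by 1.20 with a standard error of 0.24 (adjusted P = 0.015). Rps19 and Rps16, neighbours in the head of the subunit, rose by 0.77 and 0.73 (adjusted P = 0.0292 and 0.0376). Rps19 is the gene most often mutated in Diamond-Blackfan anaemia.

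Rps6 rose by 0.49 (adjusted P = 0.0418), from 93.7, 100 and 91.1 CPM in S to 118, 118 and 165 CPM in A + T. Rpsa had 0.32 (adjusted P = 0.132) and Rps9 0.36 (adjusted P = 0.105), and neither passed although both had every A + T heart above every S heart.

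Of the large-subunit genes Rpl39 changed most, from 19.0, 19.9 and 20.2 CPM in S to 39.8, 37.2 and 58.4 CPM in A + T. This was a rise of 1.20 on the log2 scale with a standard error of 0.26 (edgeR, adjusted P = 0.0211). Rpl29, a basic protein at the surface of the large subunit, went from 5.81, 6.90 and 6.44 CPM to 12.4, 11.1 and 14.9 CPM, a rise of 1.0 with a standard error of 0.21 (adjusted P = 0.0179). In both genes the 2 groups were widely separated. Rpl36a rose by 0.92 (adjusted P = 0.0406) and Rpl37a by 0.87 (adjusted P = 0.0281). Both genes of the 5S particle rose, Rpl11 by 0.75 (adjusted P = 0.0246) and Rpl5 by 0.67 (adjusted P = 0.0285).

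In the stalk, Rplp1 rose by 0.71 (adjusted P = 0.0291) and Rplp2 by 0.58 (adjusted P = 0.0382). Rplp0 had 503, 462 and 577 CPM in A + T, so that animal 21 fell within the S range, and its log2 fold change of 0.22 did not pass (adjusted P = 0.173). Rplp0 passed in T vs. S and not in A + T vs. S, and Rplp1 the reverse. In A + T vs. T Rplp0 had −0.11 (adjusted P = 0.537) and Rplp1 0.24 (adjusted P = 0.423), so for neither gene was a difference between the 2 groups shown.

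The 32 calls in A + T vs. S also moved with single libraries. Without animal 22 the count was 17, all of them among the 32, where 3.82% of all genes rose. Without animal 11 of T, which enters through the spread, the count was 17, where 3.73% of all genes rose. Without animal 2, 3 or 5 of S the count was 1, 0 and 2, where 1.3%, 1.23% and 2.43% of all genes rose, against 4.67% with all 9 libraries. With animals 15 of T and 22 of A + T both left out, an alternative chosen after the data were seen, 40 genes rose and Rpl7l1 fell by 0.35 on the log2 scale (adjusted P = 0.0268), and 31 of the 32 genes were among those called. Of all genes 5.01% rose and 4.08% fell in A + T vs. S in that fit. The median over the 84 genes was then 0.29, and that of T vs. S was 0.26.

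**Figure D3:**
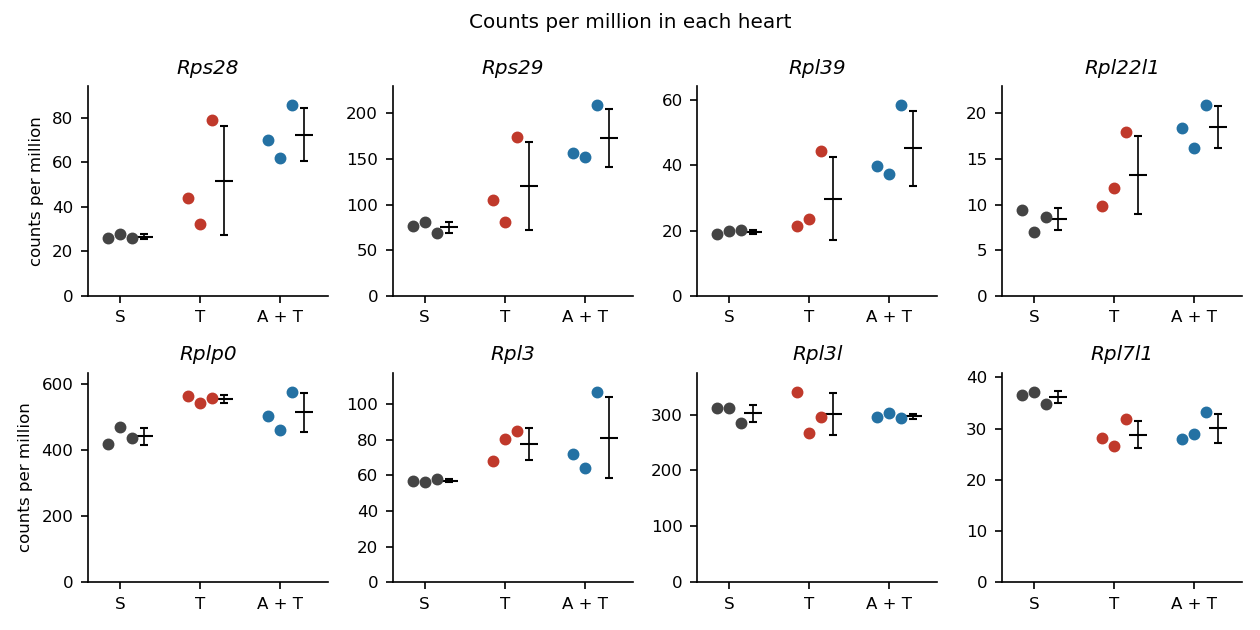
CPM of 8 genes in each heart (points) with the mean and SD of 3 animals per group (bar). In Rps28, Rps29, Rpl39 and Rpl22l1 animal 15 of T lies within the range of the A + T hearts and the other T hearts lie below that range, whereas the groups overlap in Rpl3l and every T and A + T heart lies below every S heart in Rpl7l1.

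The paralogues did not follow the genes they resemble in every case. Rpl3l had 311, 311 and 285 CPM in S, 341, 267 and 295 CPM in T, and 295, 302 and 293 CPM in A + T. The 3 groups overlapped throughout, and its log2 fold changes of −0.00, −0.02 and −0.03 were all far from the threshold (adjusted P between 0.893 and 0.978, edgeR). Rpl3, which it replaces in muscle ribosomes, had 57.0, 56.4 and 57.9 CPM in S, 67.8, 80.3 and 85.0 CPM in T, and 72.0, 64.3 and 107 CPM in A + T. Every T and A + T heart was above every S heart for Rpl3, but its log2 fold changes from S, 0.44 and 0.51, did not pass (adjusted P = 0.0802 and 0.0836).

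Per exon length, the level of Rpl3l was between 4.19 and 4.69 times that of Rpl3 in S, between 2.84 and 4.28 times in T and between 2.35 and 4.0 times in A + T. The ratio thus overlapped between S and T and was lower in every A + T heart than in every S heart, with the lowest value in animal 22. It counts uniquely placed reads only, and 83.2% of the 75-base stretches of Rpl3 occur in another annotated gene, whereas none of those of Rpl3l does. The ratio between the 2 genes is therefore uncertain.

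Rpl22l1, the paralogue that replaces Rpl22 and is repressed by it in other cells, had 9.40, 7.05 and 8.68 CPM in S, 9.85, 11.8 and 18 CPM in T, and 18.4, 16.2 and 20.9 CPM in A + T. Every A + T heart lay well above every S heart, and animal 15 was again the T heart that lay with A + T. It rose by 1.15 in A + T vs. S (standard error 0.21, adjusted P = 0.0116, edgeR) and had 0.64 in T vs. S (adjusted P = 0.0537). Rpl22 itself rose by 0.43 in A + T vs. S (adjusted P = 0.0433). Per length, Rpl22l1 was at 0.324 to 0.44 of the level of Rpl22 in S and at 0.63 to 0.672 in A + T. In T the ratio was 0.386, 0.469 and 0.645, so that T overlapped S and animal 15 lay in the range of A + T. The 2 genes differ in exon length, 0.475 kb for Rpl22l1 and 2.51 kb for Rpl22. Of the 75-base stretches of Rpl22l1 49.6% occur in another annotated gene, against 1.4% of those of Rpl22. This ratio is therefore uncertain as well.

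Rpl36al rose by 0.57 in A + T vs. S (adjusted P = 0.0482), beside 0.92 for Rpl36a. Rps27l, a p53-responsive relative of Rps27, had 0.07 and 0.28 from S (adjusted P = 0.763 and 0.23), and Rps4l, a retrocopy of the X-linked Rps4x, had −0.00 and 0.24 (adjusted P = 0.996 and 0.43). Rps4x had 0.33 and 0.39 (adjusted P = 0.0868 and 0.0817). Rpl37rt, a retrotransposed copy, had only 24 to 40 counts per library and values of 0.30 and 0.31, beside 0.35 and 0.53 for Rpl37, none of which passed.

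The level of the members per length spread widely, although the subunits hold most of these proteins in equal number. Levels here are geometric means over the 9 hearts, that is, means taken on the log2 scale and turned back. They are in CPM per kilobase of exon as the deposited values define it. The highest were Rps15 at 569, Rps14 at 523 and Rps9 at 476, and the median was 190. The lowest were Rpl30 at 1.31, Rpl34 at 1.37 and Rps27 at 1.65, each on fewer than 24 counts in every library. Ribosomal protein genes have many processed copies in the genome, and 80 of the 84 shared at least one 75-base stretch with another annotated gene, with a median of 34.9% of stretches and up to 84.9%. The part of this in the spread of levels was not tested.

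Shorter members differed more between groups. Across the 84 genes, which are not independent replicates, the log2 fold change had a Pearson correlation with log2 exon length of −0.30 in T vs. S, −0.36 in A + T vs. T and −0.43 in A + T vs. S. The 16 members under 0.5 kb, among them Rps28 (0.328 kb), Rps29 (0.392 kb), Rpl39 (0.394 kb) and Rpl22l1 (0.475 kb), had medians of 0.43, 0.23 and 0.65 in the 3 comparisons. The 16 members of 1 to 2 kb had medians of 0.32, 0.03 and 0.32. The 4 members over 2 kb had 0.29, 0.19 and 0.48, so the medians did not fall steadily with length in the comparisons of A + T.

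Most short genes that are not ribosomal proteins also lay above 0. The 95 other genes under 0.5 kb had medians of 0.21, 0.23 and 0.42, and 72.6%, 74.7% and 86.3% of them lay above 0. Their median deviation was −0.15, −0.12 and −0.26 in the S hearts, −0.02, −0.17 and 0.18 in T, and 0.13, 0.12 and 0.38 in A + T, so animals 15 and 22 were the highest of their groups here too. In A + T vs. T the short members and the other short genes had the same median. Compared with S, in both T and A + T, the members lay above other genes in each of the 5 length classes, for example at 0.31 against 0.01 and 0.39 against 0.08 between 0.75 and 1 kb.

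When a trend with exon length and GC content was removed in each library, 1 gene remained called in T vs. S (Rps28, 0.82, adjusted P = 0.0377) and 3 in A + T vs. S (Rps28, 1.18, adjusted P = 0.0147; Rps29, 0.89, adjusted P = 0.0366; Rpl29, 0.94, adjusted P = 0.0288, edgeR). Of the 12888 genes in this fit, 6.21% rose and 7.24% fell in T vs. S, and 2.96% rose and 1.09% fell in A + T vs. S. The medians over the 84 genes were then 0.25 and 0.31 and kept their sign. Rpl22l1 had 0.76 and Rpl39 0.86 in A + T vs. S (adjusted P = 0.0923 and 0.0556). Whether the relation to length arose in the hearts or in the preparation of the libraries was not tested.

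**Figure D4:**
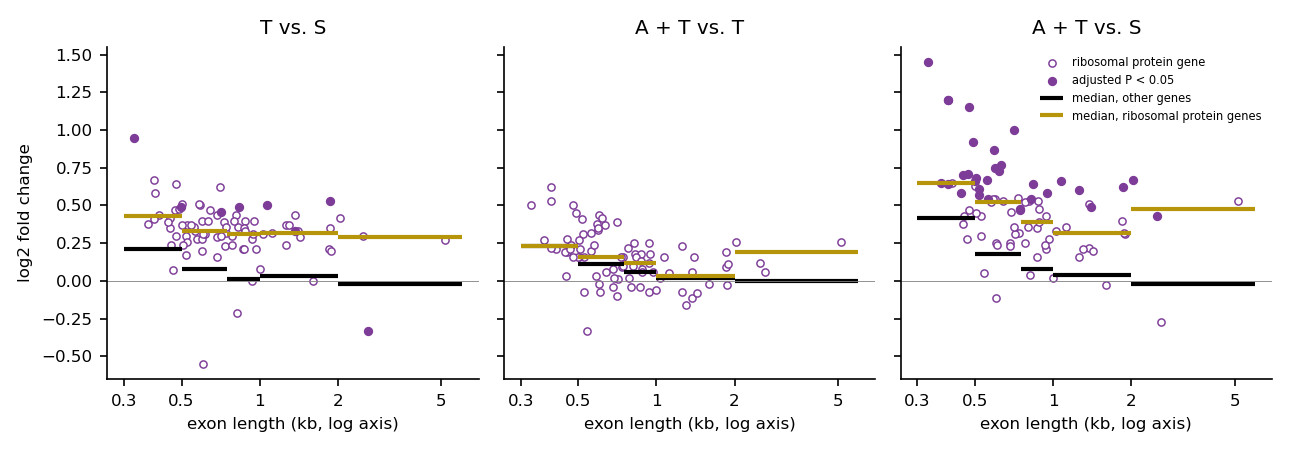
Log2 fold change of each ribosomal protein gene (purple, filled at an adjusted P-value under 0.05) against exon length in kilobases on a log axis, for the 3 comparisons, with the median of the members (gold) and of all other genes (black) in 5 length classes. Members and other genes are both highest below 0.5 kb, where their medians coincide in A + T vs. T, and the gold lines lie above the black ones in both comparisons with S.

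Members with and without a TOP tract within 3 bases of the start had close medians, and a difference between them was not tested. The 23 subunit genes with a tract gave medians of 0.32 (T vs. S) and 0.49 (A + T vs. S) on the log2 scale, and the 33 without had 0.37 and 0.53. In A + T vs. T the order was the reverse, at 0.19 with a tract and 0.11 without. Rps28 and Rpl39, both without a tract in this window, were among the genes that changed most, and Rps6, with one, was near the median. Rpl22l1, with a tract, was also among those that changed most, at 0.64 (T vs. S) and 1.15 (A + T vs. S). As a paralogue it is not counted in the medians above. The run in Rpl39 opened just outside the window, so its place among the genes without a tract rests on the limit chosen.

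Some other mRNAs known to carry a TOP tract rose in T. Of 14 listed, mainly elongation and initiation factors, 6 rose in T vs. S, where 10.3% of all genes did so, and 0 fell, where 11% did so, with a median of 0.27. Eef2, the factor that moves the ribosome along the mRNA, had 1670, 1550 and 1570 CPM in S and 2310, 2170 and 2100 CPM in T, with no overlap (log2 fold change 0.46, adjusted P = 0.00451, edgeR). Eif4b rose by 0.43 (adjusted P = 0.00472), Npm1 by 0.41 (adjusted P = 0.0193) and Tpt1 by 0.48 (adjusted P = 0.0324). In A + T vs. S, where 4.67% of all genes rose, 1 of the 14 did, Tpt1 by 0.55 (adjusted P = 0.0363), and the median was 0.16. In A + T vs. T none of the 14 passed (0 higher and 3 lower at an unadjusted P-value under 0.05 by edgeR), and the median was −0.09, against 0.16 for the ribosomal protein genes. At that unadjusted threshold 11.8% of all genes were higher and 10.6% lower.

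Of the ribosomal proteins outside the symbol rule, Fau, which encodes Rps30 fused to a ubiquitin-like protein, rose in A + T vs. S by 0.60 (edgeR, adjusted P = 0.0479). Gnb2l1, the scaffold now called Rack1, had 0.13 (adjusted P = 0.516). Of the 77 genes for proteins of the mitochondrial ribosome, 1 rose and 9 fell in T vs. S (10.3% and 11% of all genes), with a median of −0.09, and 0 rose and 3 fell in A + T vs. S (4.67% and 3.64% of all genes), with a median of −0.02. The shares that fell were near those of all genes.

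Of 17 genes of mTORC1, its inhibitors and its targets, 3 rose and 1 fell in T vs. S, where 10.3% and 11% of all genes did so, and the list was not tested against these shares. Eif4ebp1, an inhibitor of cap-dependent translation, had 53.4, 56.2 and 52.9 CPM in S, 106, 104 and 84.9 CPM in T, and 66.2, 75.7 and 92.2 CPM in A + T. It rose by 0.86 in T vs. S (adjusted P = 0.0013) and by 0.53 in A + T vs. S (adjusted P = 0.03, edgeR). Rps6kb1, the S6 kinase, rose by 0.38 in T vs. S (adjusted P = 0.00318) and fell by 0.26 in A + T vs. T (adjusted P = 0.0443). Sesn1, a sensor that restrains mTORC1, rose by 0.58 in T vs. S (adjusted P = 0.0076), and Eif4ebp2 fell by 0.24 (adjusted P = 0.0422). Larp1 had −0.08 and −0.28 from S and Mtor 0.04 and −0.21, none of which passed (adjusted P between 0.27 and 0.865).

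Markers of other cell types moved between the same groups. All 7 fibroblast markers fell in T vs. S, where they summed to between 894 and 1030 CPM against 1720 to 1890 CPM in S, and 5 of 7 rose in A + T vs. T. All 5 mural markers and 3 of 6 endothelial markers fell in T vs. S, and 1 of each rose in A + T vs. T. The 5 atrial markers summed to between 3000 and 3080 CPM in S, 861 and 4550 CPM in T, and 793 and 2050 CPM in A + T. The 6 macrophage markers summed to between 162 and 174 CPM in S, 162 and 175 CPM in T, and 199 and 282 CPM in A + T, where 4 of 6 rose against S. The 8 cardiomyocyte markers summed to between 75700 and 81200 CPM in S, 63900 and 74100 CPM in T, and 55000 and 76100 CPM in A + T. Singly they differed in direction in T vs. S, where 2 rose and 1 fell and 3 of 8 lay above 0. Their log2 fold changes there ran from −0.90 to 0.38 with a median of −0.04, so the sum does not speak for each gene. Of all genes 10.3% rose and 11% fell in T vs. S, 3.09% rose in A + T vs. T and 4.67% rose in A + T vs. S. No marker present in these lists was at 0 in all hearts. The part of these shifts in the ribosomal protein values was not tested.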

How the data were processed

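Heart RNA of 9 mice, 3 each labelled S, T and A + T, was analysed. The authors enriched mRNA, sequenced 75-base paired ends and, per the labels, aligned to mm10 with STAR. They deposited raw counts per gene without normalization, together with log2 values normalized for library size and exon length in kilobases. The 3443 rows with no gene name were left out. The exon lengths used here were recovered from the difference between log2 CPM and the deposited log2 values, which was constant for a gene (median SD 0.00092).

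Genes with under 0.5 CPM in more than 4 libraries were removed (526 genes). All 9 libraries were fitted in 1 model with group as the only term, with edgeR 4.0.16 (TMM, quasi-likelihood F test, Benjamini-Hochberg over 13364 genes). Standard errors are the log2 fold change divided by the root of F. The fit was checked on simulated data. Alternatives used DESeq2 1.42.0, limma 3.58.1, other scalings and filters, and single animals left out. The labels number the animals. Each P-value of the edgeR fit sets a difference between groups against the spread between animals, estimated over all 9 libraries. Coordinates are those of RefSeq on GRCm38.p6. The symbol rule and the gene lists were chosen with earlier results of these data known. Genes described singly were up to 10 of those that rose or fell most in each comparison, paralogues with their parents (Rpl37rt added after the data were seen), the stalk, Rpl5, Rpl11, Rps6, Rpsa, Rpl7l1, Rps19bp1, and the 3 highest and 3 lowest by level. In the promoters 4 motifs were searched. The 7-base core of the YY1 motif was added after the 11-base form had given 0 members, because the longer letters could not be printed, and both results are given. Values of 2 genes, 1 of them a member, are not reported here.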

Additional observations from a re-analysis of the deposited data

How the results depend on the processing

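The median log2 fold changes over the 84 genes kept their sign under every setting tried, except in A + T vs. T without animal 22 of A + T (−0.02). With single animals left out they lay between 0.26 and 0.40 in T vs. S, −0.02 and 0.27 in A + T vs. T, and 0.29 and 0.57 in A + T vs. S. The counts past the threshold moved more. With single animals left out the count was 0 to 60 in T vs. S, 0 to 4 in A + T vs. T and 0 to 37 in A + T vs. S. Over all genes the shares that rose in these fits were 6.52% to 14.4%, 0.404% to 3.83% and 1.23% to 4.74%. The shares that fell were 6.61% to 13.9%, 0.569% to 3.7% and 0.711% to 3.52%. With animals 15 of T and 22 of A + T both left out, chosen after the data were seen, the count was 44, 9 and 41. Of all genes 13.2%, 4.42% and 5.01% rose there, and 13.2%, 4.21% and 4.08% fell. In T vs. S, where 8 genes passed, the count was 32 with DESeq2 and 50 when only the groups compared were fitted. Of all genes 11.1% rose and 11% fell with DESeq2, and 12.7% and 12.8% with only the groups compared. The count was 2 with total count scaling, where 4.38% of all genes rose and 7.86% fell. It was 4 with the unadjusted P-value and 1.5-fold rule (5.2% of all genes higher and 9.01% lower), and 1 in A + T vs. T (6.5% and 1.61%). It was 1 with the length and GC trend removed, whether fitted on all genes or on the other genes (6.21% and 7.24% of all genes with the former). At an adjusted P-value under 0.1 it was 38, without a share over all genes to set beside it. In A + T vs. S, where 32 passed, it was 49 with DESeq2 and 3 with either trend removed. Upper-quartile scaling, TMM without the members, limma and the other filters left each count within 1.5 times. Without the ribosomal RNA gene Rn45s, which took 4.57% to 19.6% of the counts, the mean share of counts on the 84 genes was 1.25% in S (1.09% with it), 1.48% in T (1.33%) and 1.71% in A + T (1.43%). The causes of these shifts were not tested. No paired analysis was possible because the animal numbers differ between the groups. Depth limits Rpl30, Rpl34, Rps27 and Rpl37rt, each with a mean under 50 counts.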

Other observations

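RNA polymerase I, which transcribes the ribosomal RNA that these proteins bind, had few genes past the test. Of 9 genes for its subunits and factors, Taf1d, a part of the selectivity factor, rose by 0.66 in T vs. S (edgeR quasi-likelihood test, adjusted P = 0.00406), from 8.4, 8.07 and 8.61 CPM in S to 11.3, 14.1 and 14.1 CPM in T. Polr1e had 32.5, 33.0 and 25.5 CPM in S and 22.2, 23.2 and 19.4 CPM in A + T, with every A + T heart below every S heart, and fell by 0.49 on the log2 scale (adjusted P = 0.0257). By the adjusted test 1 of the 9 rose in T vs. S (10.3% of all genes) and 1 fell in A + T vs. S (3.64% of all genes). All 9 genes lay below 0 in A + T vs. T, with a median of −0.21, and none passed the adjustment (4 lower and 0 higher at an unadjusted P-value under 0.05). Of all genes 51.7% lay above 0 there, and 10.6% were lower and 11.8% higher at that unadjusted threshold. Of 9 genes for chaperones that carry single ribosomal proteins to the nucleolus none passed in any comparison by edgeR, with 3 higher in T vs. S, 2 lower in A + T vs. T, and 1 higher and 2 lower in A + T vs. S at an unadjusted P-value under 0.05. Of all genes 17.3% were higher in T vs. S and 10.6% lower in A + T vs. T at that threshold. In A + T vs. S 13.6% were higher and 12.5% lower. Neither list was tested against these shares.

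The ratio of Rps28 to Rpl4, a longer large-subunit gene, in CPM was chosen after the values were seen and was not tested. It was between 0.0573 and 0.0601 in S, 0.0774, 0.0595 and 0.145 in T, and between 0.133 and 0.143 in A + T, so that 2 T hearts lay below every A + T heart and animal 15 of T lay just above them.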
